A study of Mus musculus with 6 samples.

Results

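The genes described here are the 4 Notch receptors of the mouse, Notch1, Notch2, Notch3 and Notch4, their ligands Jag1, Jag2, Dll1, Dll3 and Dll4, and Maml3, a coactivator of the Notch transcription complex. They were taken by gene symbol from a table of 24973 genes, and all 10 were present. Their levels were compared between 2 populations of spermatogonia sorted from testes of FVB/N mice aged 2 to 3 months, which the labels call c-kit- undifferentiated and c-kit+ differentiating spermatogonia. Both populations were α6 integrin-selected cells with the side population (SP) phenotype and no surface β2-microglobulin, so of the sort markers only c-kit set them apart. Whether they came from the same mice or sort days is not stated. There were 3 samples of each, with 10000 cells from 1 mouse per sample, and no mouse was treated or carried a labelled mutation. RNA was amplified from 500 pg and hybridized to Affymetrix Mouse Gene arrays, and the deposited levels are log2 values normalized by robust multi-array average (RMA). A positive log2 fold change below is a higher level in c-kit- cells. In sorted bulk samples, fewer cells of a type and less RNA per cell cannot be told apart.

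Kit, the gene of the sorted receptor, was at 6.07, 6.35 and 6.03 on the c-kit- arrays and at 9.84, 9.85 and 9.69 on the c-kit+ arrays. Of 10 markers of undifferentiated spermatogonia, 10 were higher in c-kit- cells, and of 8 markers of differentiating spermatogonia, 7 were lower and 1, Sohlh2, did not pass the test. The test was limma's moderated test over all 24973 genes, and a gene was called at a Benjamini-Hochberg adjusted p under 0.05. Over all genes, 9.33% were called higher and 8.79% lower. Kit is itself 1 of the 8 markers, and both marker lists were chosen with earlier results of these data known. Their counts are therefore a description and no independent check of the sort. Transcripts of spermatids were present in both populations, with a mean of their 8 markers between 9.72 and 10.3 on the 6 arrays. The mean of 11 leukocyte markers, though not each of them, was higher on c-kit+ replicates 1 and 2 than on the other arrays.

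Notch proteins are receptors on the surface of one cell that are activated by a Jagged or Delta-like ligand on its neighbour. Pulling by the ligand lets ADAM proteases and then γ-secretase cut the receptor, and the freed intracellular domain enters the nucleus, where it joins the DNA-binding protein RBPJ and a Mastermind-like (MAML) coactivator to switch on genes such as Hes1. Ligands made in the same cell as the receptor can also hold it inactive. In the testis, Notch genes are known from germ cells, Sertoli cells, endothelium and mural cells, and the role of the pathway in spermatogonial stem cells is debated.

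Maml3 was higher in c-kit- cells, Jag1, Jag2, Dll3 and Notch3 were lower, and Notch1, Notch2, Notch4, Dll1 and Dll4 did not pass the test. The members were chosen with earlier results of these data known, so their counts are a description and no test. The 5 members called out of 10 stand against 18.1% of all genes called in the same fit. By direction, the 1 member that was higher stands against 9.33% of all genes and the 4 that were lower against 8.79%. For 7 members all 3 arrays of one population lay above all 3 of the other, where 35.1% of all genes did so. The median log2 fold change of the members was -0.17, beside -0.04 over all genes. Of the members, 7 had a mean over the 6 arrays above 5.31, the median of all gene means, and Notch3, Dll1 and Dll4 lay below it. In a fit of only the 12486 genes above that median, 2275 were called higher and 2227 lower, a larger share than 18.1%.

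**Figure D1:**
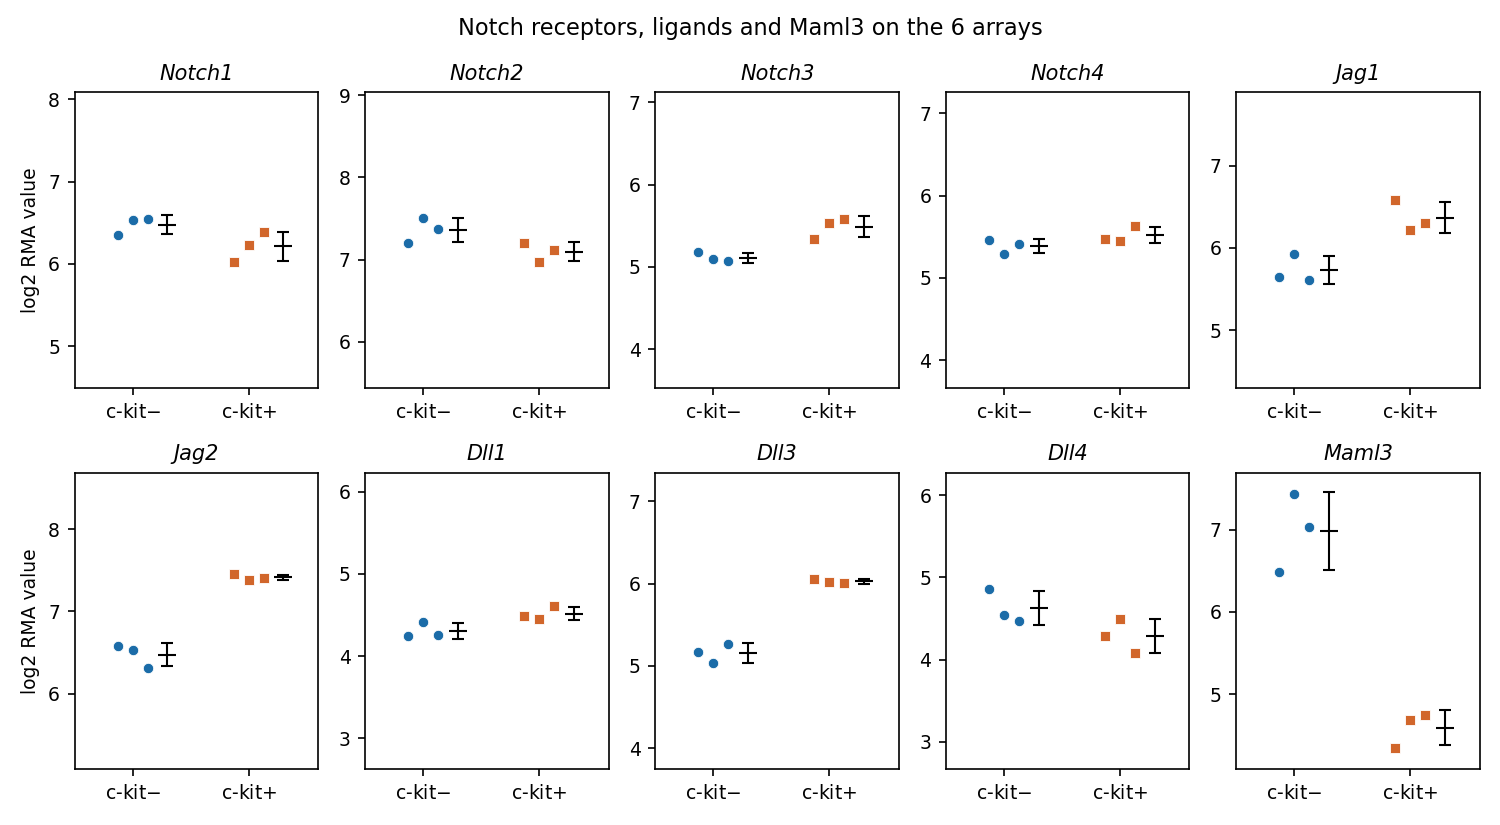
Log2 RMA value of each member on the 3 c-kit- arrays (blue circles) and the 3 c-kit+ arrays (orange squares), with the mean and SD of each group in black; each panel spans the same number of log2 units but has its own range. Maml3 lies at 6.49 to 7.43 against 4.35 to 4.74, and Jag1, Jag2, Dll3 and Notch3 lie higher on every c-kit+ array than on any c-kit- array.

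Maml3 (gene ID 433586) belongs to the MAML family, which binds the Notch intracellular domain on RBPJ and brings in histone acetyltransferases. In replicate order, its level was 6.49, 7.43 and 7.04 in c-kit- cells, against 4.35, 4.69 and 4.74 in c-kit+ cells. Every c-kit- array was above every c-kit+ array, and the c-kit- arrays were the more spread out, with an SD of 0.47 against 0.21. The log2 fold change was 2.39 (standard error 0.23, 95% interval 1.87 to 2.92, n = 3 arrays each, adjusted p = 0.000322 from limma), which is 5.25-fold. It ranked number 58 of the 24973 genes by fold change towards c-kit- cells. A two-sided exact permutation test of the 6 arrays gave p = 0.1, the smallest p that 3 arrays against 3 allow. Maml3 stayed called under all 15 other settings tried, with a log2 fold change between 2.17 and 2.64.

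For the other family members, Maml1 and Maml2, no difference passed the test. Maml1 had a mean level of 6.41 on the c-kit- arrays and 6.52 on the c-kit+ arrays, with a log2 fold change of -0.11 (95% interval -0.44 to 0.22, adjusted p = 0.686 from limma). Maml2 was at 3.86 and 4.09, with a log2 fold change of -0.23 (95% interval -0.62 to 0.16, adjusted p = 0.435 from limma). These pairs, and 2 further pairs below, were compared after their values were seen. The gap between the log2 fold changes was 2.50 for Maml3 against Maml1 and 2.62 for Maml3 against Maml2. Taken within each array, the difference between the 2 genes did not overlap between the populations in either pair (two-sided exact permutation test, p = 0.1 for both and 0.1 after adjustment over the 4 pairs compared, the smallest p possible).

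The 250 bases before each RefSeq start site of the members were searched on both strands. The letters sought were TGGGAA, the core of the site bound by RBPJ, through which Notch acts on its targets. This motif and those below were picked after the values, and this one after a first look at matches. Among the windows of the 10 members it was found only for Maml3, on the opposite strand as TTCCCA, starting at position -185 from the start site. Of all 32851 start-site windows in the table, 21.6% held it. The 30 bases around the match, shown because Maml3 had the largest change among the members, lie at chr3:52105174-52105203 on the minus strand of GRCm38.p6, within the span annotated for the gene, with the match in capitals.
Maml3: gcaggtcggggcTTCCCAgcctggggagca
A match of 6 letters is a description of the sequence and no measure of binding.

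Of the receptors, Notch3 was lower in c-kit- cells and the other 3 did not pass. Notch1 (gene ID 18128), the widely expressed receptor of many stem and progenitor cells, was at 6.35, 6.54 and 6.55 on the c-kit- and 6.03, 6.23 and 6.39 on the c-kit+ arrays. These ranges overlapped, since c-kit+ replicate 3 was above c-kit- replicate 1, and the log2 fold change was 0.26 (95% interval -0.03 to 0.56, adjusted p = 0.211 from limma). Notch2 (gene ID 18129), its close relative, was at 7.20, 7.50 and 7.37 on the c-kit- and 7.20, 6.97 and 7.11 on the c-kit+ arrays. All c-kit- arrays were above the c-kit+ arrays, but replicate 1 of each population by under 0.01, and the log2 fold change was 0.26 (95% interval -0.01 to 0.54, adjusted p = 0.189 from limma). Notch4 (gene ID 18132), best known from endothelium, was at 5.46, 5.29 and 5.41 against 5.48, 5.45 and 5.63. Its arrays overlapped, and the interval of its log2 fold change was -0.38 to 0.11 (adjusted p = 0.478 from limma).

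Notch3 (gene ID 18131), the receptor of vascular smooth muscle and pericytes, was at 5.18, 5.09 and 5.07 on the c-kit- arrays and at 5.34, 5.53 and 5.58 on the c-kit+ arrays. The groups did not overlap, and the log2 fold change was -0.37 (95% interval -0.63 to -0.12, adjusted p = 0.0494 from limma), or 1.30-fold. The adjusted p lay just under the threshold. Leaving out any one of the 6 arrays ended the call (log2 fold change -0.45 to -0.33, adjusted p = 0.0504 to 0.160 from limma). Within each array the difference between Notch2 and Notch3 was larger in c-kit- cells, at 2.25 ± 0.20 against 1.61 ± 0.22 (SD, n = 3), with no overlap between the populations (two-sided exact permutation test, p = 0.1).

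**Figure D2:**
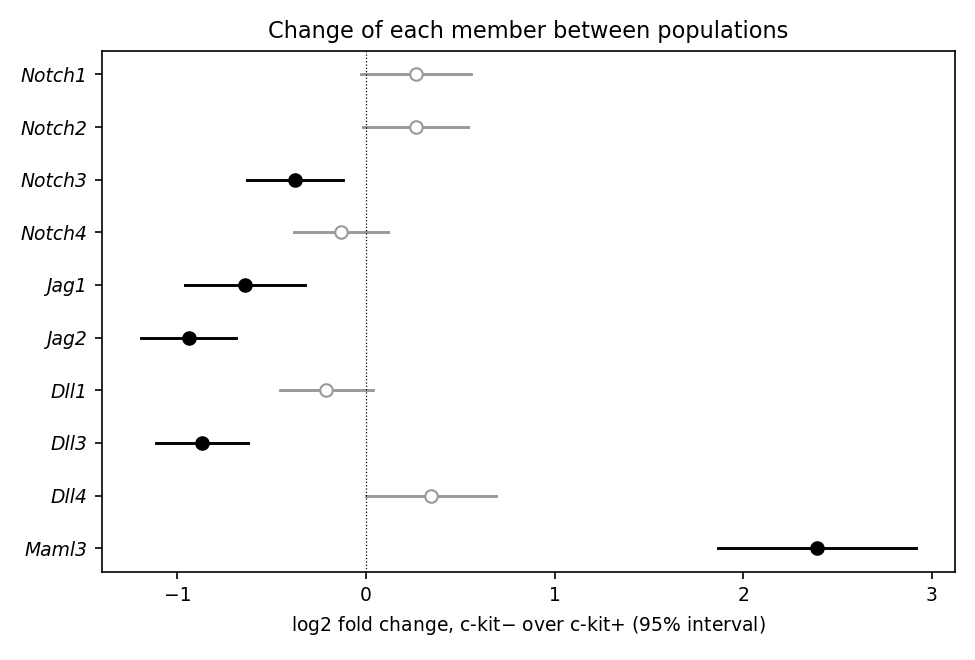
Log2 fold change of c-kit- over c-kit+ cells for each member, with its 95% interval from limma (n = 3 arrays each); filled black points have an adjusted p under 0.05 and open grey points do not. Maml3 is at 2.39, Jag2, Dll3, Jag1 and Notch3 are at -0.94, -0.87, -0.64 and -0.37, and the intervals of the other 5 members include 0.

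Of the 5 ligands, Jag2, Dll3 and Jag1 were lower in c-kit- cells and none was higher. Jag2 (gene ID 16450), a Serrate-type ligand that activates Notch on neighbouring cells, was at 6.58, 6.53 and 6.31 on the c-kit- arrays. On the c-kit+ arrays it was at 7.45, 7.39 and 7.41, each above every c-kit- array and with an SD of 0.03. The log2 fold change was -0.94 (standard error 0.11, 95% interval -1.19 to -0.69, adjusted p = 0.000862 from limma), or 1.92-fold. Dll3 (gene ID 13389), a divergent Delta-like protein that stays largely inside the cell and does not activate Notch on neighbours, was at 5.17, 5.03 and 5.27 against 6.06, 6.01 and 6.01. Its c-kit+ arrays also agreed closely (SD 0.03), and the log2 fold change was -0.87 (standard error 0.11, 95% interval -1.12 to -0.63, adjusted p = 0.00106 from limma). Both genes kept their call whichever array was left out, with log2 fold changes from -0.99 to -0.86 for Jag2 and from -0.93 to -0.81 for Dll3.

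Jag1 (gene ID 16449), the other Serrate-type ligand and the one best known from vessels and epithelia, was at 5.65, 5.92 and 5.61 on the c-kit- and 6.58, 6.22 and 6.31 on the c-kit+ arrays. The groups did not overlap, and c-kit+ replicate 1 was the highest. The log2 fold change was -0.64 (standard error 0.14, 95% interval -0.96 to -0.32, adjusted p = 0.0145 from limma). The call ended when c-kit- replicate 3 was omitted (adjusted p = 0.0513 from limma) and likewise for c-kit+ replicate 1 (adjusted p = 0.0517).

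Dll1 (gene ID 13388), a Delta-type ligand that activates Notch, was at 4.24, 4.42 and 4.26 against 4.49, 4.45 and 4.61. The groups did not overlap, but by only 0.03 at the nearest pair, and the log2 fold change was -0.21 (95% interval -0.46 to 0.04, adjusted p = 0.241 from limma). Dll4 (gene ID 54485), the Delta-type ligand of sprouting vessels, was at 4.86, 4.55 and 4.47 against 4.29, 4.49 and 4.08. It was the one ligand with a higher mean in c-kit- cells, its arrays overlapped, and the log2 fold change was 0.34 (95% interval -0.00 to 0.69, adjusted p = 0.168 from limma). The difference between Jag2 and Dll4 within each array had a mean of 1.85 ± 0.14 over the c-kit- arrays and of 3.13 ± 0.22 over the c-kit+ arrays (SD, n = 3), with no overlap (two-sided exact permutation test, p = 0.1).

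For the ligands that were lower together, the windows before the start site were also searched for CACNAG, the N box to which HES repressors bind, and for CNCCTCAG, a site known from mouse germ cells for STRA8, which acts at the start of meiosis. Neither these nor the RBPJ letters occurred in the windows of Jag1, Jag2 or Dll3, where 36.7% of all windows held the N box and 6.42% the STRA8 letters. Among the other members the N box occurred before Notch1, Notch2, Notch3 and Dll4. The STRA8 letters occurred before 1 start site of Dll1 and not before its other start site. The windows of Dll3, at chr7:28301786-28302035, and of Jag1, at chr2:137116521-137116770, both on the minus strand of GRCm38.p6, are shown as the sequences of called ligands that lie wholly outside the annotated gene. They hold no match and so no capitals.
Dll3: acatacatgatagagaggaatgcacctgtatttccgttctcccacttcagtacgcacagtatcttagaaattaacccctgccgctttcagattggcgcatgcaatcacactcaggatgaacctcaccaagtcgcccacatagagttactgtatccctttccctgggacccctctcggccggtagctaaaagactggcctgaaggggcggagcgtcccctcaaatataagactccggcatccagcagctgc
Jag1: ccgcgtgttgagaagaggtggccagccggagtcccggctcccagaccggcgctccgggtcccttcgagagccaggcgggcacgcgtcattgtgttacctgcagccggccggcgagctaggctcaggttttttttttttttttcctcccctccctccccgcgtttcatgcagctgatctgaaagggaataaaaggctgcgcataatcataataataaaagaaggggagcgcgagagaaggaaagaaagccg
No match in such a window says only that these letters are not in it.

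The rest of the pathway was described by 8 lists, also chosen with earlier results of these data known, that hold 78 other genes. Of these, 10 were higher in c-kit- cells, 15 were lower and 53 did not pass, so 32.1% were called beside 18.1% of all genes (9.33% higher and 8.79% lower), and their median log2 fold change was -0.04, as over all genes. For 41 of the 78 the arrays of the populations did not overlap, beside 35.1% of all genes. Of the 78, 59 had a mean above 5.31, the median of all gene means. In the fit of only the 12486 genes above that median, 2275 were called higher and 2227 lower, a larger share than 18.1%. The 32.1% is therefore no sign of an excess over genes of such levels. The counts of the single lists, given next, are small and are to be read against the same shares.

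Of 10 genes for cutting the receptor, 3 were lower in c-kit- cells, none was higher and 7 did not pass, with a median log2 fold change of -0.14, where 8.79% of all genes were lower. With the replicate number as a block, 1 gene of the list was called higher. Adam10, the protease that makes the first cut after ligand binding, was at 8.10, 8.13 and 7.96 against 8.94, 8.99 and 8.74, with no overlap and a log2 fold change of -0.83 (adjusted p = 0.00186 from limma). Aph1b, a γ-secretase subunit, had a log2 fold change of -0.67. Furin, which cuts the receptor during its maturation, was at -0.36 and just missed the threshold (adjusted p = 0.0513 from limma), and Psen2, also of γ-secretase, had a higher mean in c-kit- cells that did not pass (log2 fold change 0.54, with overlap).

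Of 6 enzymes that put sugars on the receptor's extracellular part, 3 were lower in c-kit- cells, none was higher and 3 did not pass, with a list median of -0.58. Lfng and Rfng, which are Fringe glycosyltransferases that change the response of Notch to Delta and Jagged ligands, had log2 fold changes of -0.73 and -0.66, and Pofut1, which adds the fucose that Fringe extends, of -0.65. Mfng, the third Fringe gene, had a log2 fold change of 0.38 and did not pass (adjusted p = 0.0734 from limma), and neither did Poglut1, which adds glucose, at 0.06. With cyclic loess, with array weights and without c-kit- replicate 1, 1 gene of the list was called higher. Rfng lost its call when c-kit+ replicate 2 or 3 was omitted (adjusted p = 0.0515 to 0.0528 from limma).

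Of 9 genes for ligand activation and endocytosis, Dnm1, a dynamin best known from neurons, and Mib1, the ubiquitin ligase that lets ligands be pulled into the sending cell, were lower at -1.27 and -0.40. Neurl2, of the Neuralized family, was higher at 0.63, and 6 did not pass (list median 0.05). For Mib1 and Neurl2, 5 of the 6 omissions of a single array ended the call (adjusted p from limma of 0.0576 to 0.0783 for Mib1 and 0.0605 to 0.0978 for Neurl2).

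Of 10 genes of the nuclear complex, which include the relatives of Maml3, 3 were higher in c-kit- cells, none was lower and 7 did not pass, with a list median of 0.12, where 9.33% of all genes were higher. Kat2b (PCAF) and Kat2a (GCN5), histone acetyltransferases that assist transcription by Notch, had log2 fold changes of 1.37 and 0.63. Kat2b was at 6.71, 6.78 and 7.09 on the c-kit- and 5.58, 5.23 and 5.67 on the c-kit+ arrays, so its groups lay far apart. Snw1 (SKIP), which binds RBPJ and the Notch intracellular domain, was at 0.37, and its call ended without any one of the 6 arrays (adjusted p = 0.0607 to 0.124 from limma). Rbpj itself, the DNA-binding partner, was at 6.24, 5.71 and 5.39 against 6.27, 6.19 and 5.68, with overlap between the populations (log2 fold change -0.26, 95% interval -0.80 to 0.27, adjusted p = 0.522). Ep300 and Crebbp, the acetyltransferases that MAML proteins recruit, had log2 fold changes of 0.30 and -0.01 and did not pass.

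**Figure D3:**
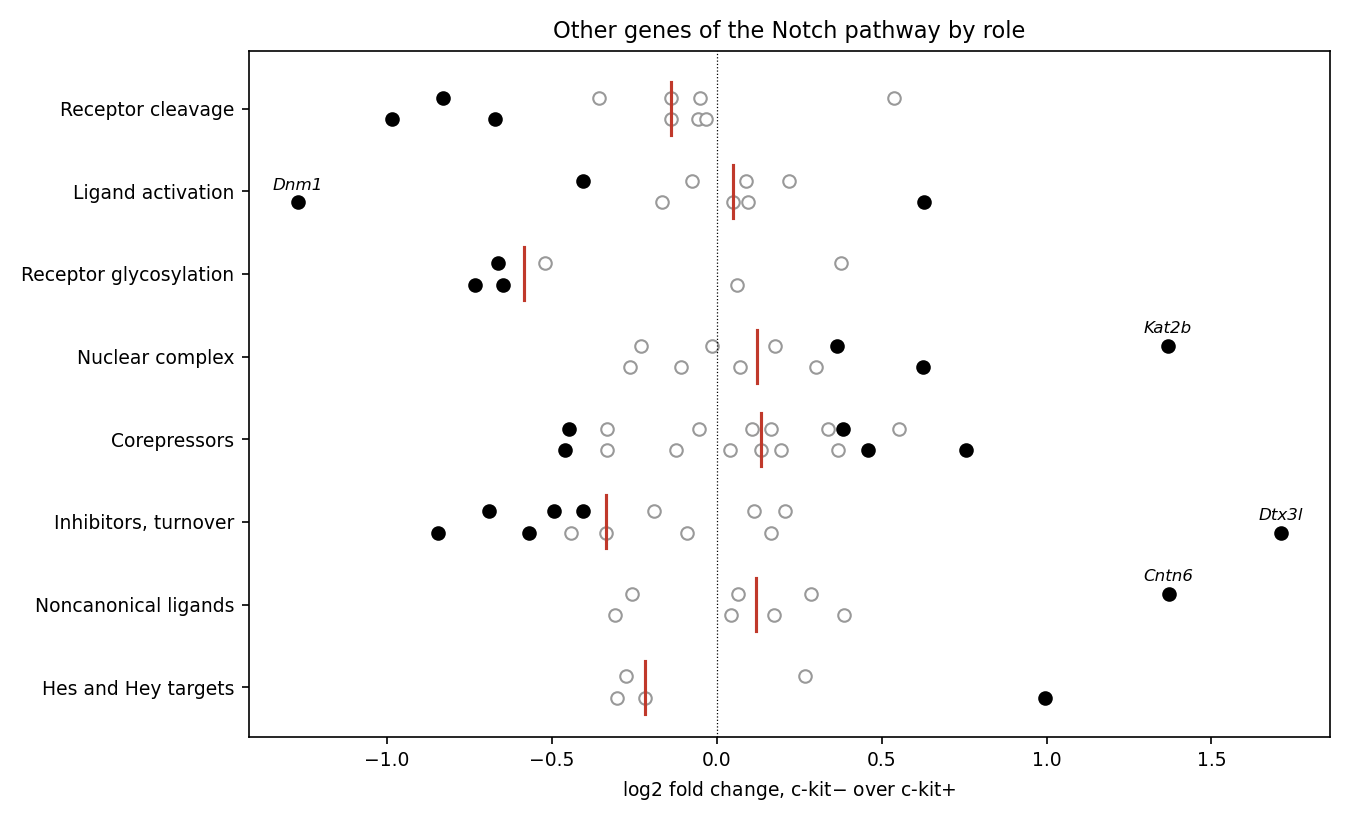
Log2 fold change of c-kit- over c-kit+ cells for 78 other genes of the Notch pathway, 1 row per list; filled points have an adjusted p under 0.05 from limma, open points do not, the red line is the list's median, and called genes with a change over 1 in either direction are named. The 3 called genes for receptor cleavage and the 3 for receptor glycosylation lie below 0, and the 3 called genes of the nuclear complex lie above it.

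Of 17 corepressors, which hold RBPJ targets off when Notch is inactive, 3 were higher and 2 lower (list median 0.13). Among them Ctbp2 was higher at 0.46 and Tle4 at 0.38, and Tle2 was lower at -0.46 and Hdac1 at -0.45. These 4 lost the call when 1 of certain arrays was left out, for Ctbp2 c-kit- replicate 2 or c-kit+ replicate 3, for Tle2 1 of 3 arrays, for Hdac1 1 of 4 and for Tle4 1 of 5 (adjusted p = 0.0535 to 0.131 from limma). Of 13 inhibitors and regulators of receptor turnover, 1 was higher and 5 were lower (list median -0.34). Dtx3l, a Deltex-family ubiquitin ligase that is also known from the DNA damage and interferon responses, was at 6.64, 6.52 and 6.11 on the c-kit- and 4.73, 4.80 and 4.62 on the c-kit+ arrays, with no overlap and a log2 fold change of 1.71 (adjusted p = 0.000226 from limma). The lower genes were Itch (-0.84), a ubiquitin ligase that acts on Notch, Dtx4 (-0.69), Ccnc (-0.57) and Fbxw7 (-0.49), which act in the breakdown of the nuclear Notch fragment, and Numbl (-0.41), of the Numb family of Notch inhibitors. Fbxw7 lost the call without 1 of 4 arrays and Numbl without 1 of 5 (adjusted p = 0.0580 to 0.127). Of 8 noncanonical ligands, Cntn6, an adhesion molecule of neurons, was higher at 1.37 and the other 7 did not pass (list median 0.12).

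Of 5 Hes and Hey genes, the best known targets of Notch, Hes1 was higher in c-kit- cells and the other 4 did not pass. Hes1, a repressor that Notch induces and that other signals can induce as well, was at 7.36, 7.37 and 7.50 on the c-kit- and 6.46, 6.28 and 6.49 on the c-kit+ arrays. No arrays overlapped, and the log2 fold change was 1.00 (95% interval 0.75 to 1.25, adjusted p = 0.000606 from limma). Hey1, Hey2 and Heyl had log2 fold changes of -0.28, -0.30 and -0.22 and Hes5 of 0.27, and none of these passed (list median -0.22, adjusted p = 0.190 to 0.447 from limma). Of the feedback genes that Notch also induces, Nrarp was at -0.44 (adjusted p = 0.0860) and Dtx1 at -0.09 (adjusted p = 0.725), and neither passed.

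Several of these genes are also expressed by other cells of the testis, which the sort for SP cells with α6 integrin and without β2-microglobulin is meant to remove. Some markers of those cells nevertheless differed between the populations. Their counts are small and are to be read against the 18.1% of all genes called (9.33% higher and 8.79% lower). The called share was 33.3% of the endothelial, 37.5% of the myoid and 27.3% of the leukocyte markers. For Sertoli and Leydig cell markers it was 8.33% and 14.3%, below the share over all genes. Of 12 endothelial markers, 4 were called higher in c-kit- cells (Flt1, Cdh5, Pecam1 and Tek) and none was called lower. Egfl7, Tie1, Esam and Eng had lower means that did not pass (log2 fold changes -0.26, -0.23, -0.08 and -0.01). The mean of the list was 4.86 to 4.95 on the c-kit- and 4.55 to 4.66 on the c-kit+ arrays. A mean above 5.31, the median of all gene means, was seen for 2 of the 12 endothelial and none of the 7 Leydig cell markers. Levels of different genes are not comparable on these arrays, so this does not establish low expression. Of the members, Notch1, Notch2, Dll4 and Maml3 had higher means in c-kit- cells too, whereas Notch3, Notch4, Jag1, Jag2, Dll1 and Dll3 had lower ones. Of 8 peritubular myoid markers, 3 were lower in c-kit- cells (Mylk, Smtn and Tagln), the same direction as Notch3 and Jag1, and the list mean was 4.95 to 5.09 against 5.36 to 5.51. Of 11 leukocyte markers, Cd74, C1qb and Cd3e were lower. Cd68 had a higher mean that did not pass (log2 fold change 0.40), and the others had lower means that did not pass. The list mean was 4.80 to 4.89 on the c-kit- arrays, whereas c-kit+ replicate 1 had 5.60, replicate 2 had 5.52 and replicate 3 had 4.92. Of 12 Sertoli cell markers, Trf was higher and 11 did not pass, with list means of 6.04 to 6.15 against 6.03 to 6.24. Of 7 Leydig cell markers, Nr2f2 was lower, with list means of 3.65 to 3.71 against 3.80 to 4.18. The part of these cells in the Notch results was not tested. A further fit kept c-kit+ replicate 3 as the only c-kit+ array. Its log2 fold changes were 2.24 for Maml3, -0.93 for Jag2, -0.85 for Dll3, -0.58 for Jag1 and -0.47 for Notch3. That array was not free of these markers. Cd74, C1qb and Cd3e were at 7.44, 6.08 and 4.69 there, each above every c-kit- array, and so was the myoid list mean, at 5.39. Cd68 was at its lowest there, at 5.68.

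**Figure D4:**
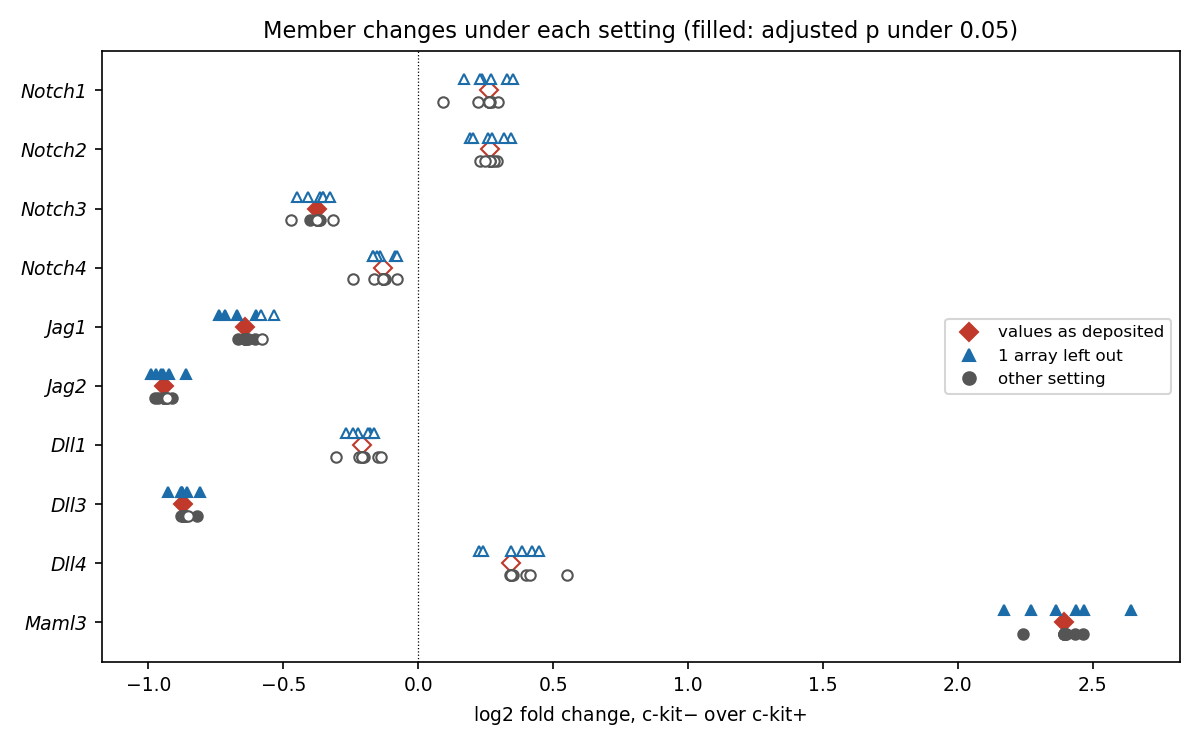
Log2 fold change of each member with the values as deposited (red diamonds), with 1 array left out (blue triangles) and under the other settings (grey circles); filled points have an adjusted p under 0.05. No member changes sign, Maml3 is filled under every setting, and Notch3 is open whenever 1 array is left out.

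The genes whose levels followed Maml3 most closely over the 6 arrays were Dhx40, Ppp3ca, Usf1, Fam3c and 1 gene known only by its ID, with Pearson's r from 0.998 to 0.999. Dhx40 had a log2 fold change of 0.30, Ppp3ca of 0.89, Usf1 of 1.32 and Fam3c of 1.53. All such genes share the step between 3 c-kit- and 3 c-kit+ arrays, and 942 genes had an r over 0.95 with Maml3.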

How the data were processed

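The members and gene lists were chosen with earlier results of these data known. The authors normalized the arrays by RMA in R/Bioconductor, which corrects background, equalizes the distributions between arrays and combines each gene's probes, and deposited log2 values, 1 per Entrez gene ID and array. RMA brings the arrays to a common distribution, so levels are relative to the other genes, and levels of different genes are not comparable. The version and probe set definition are not given in the sources used here. Genes were named by ID from a GRCm38.p6 gene table (24481 genes) or the platform's table (93), and 399 stayed unnamed. No further normalization or filter was applied. limma 3.58.1 in R 4.3.3 compared 3 c-kit- with 3 c-kit+ arrays in place of the ANOVA that the methods name, since it shares the variance between genes. The procedure was tested on simulated data. The number of arrays limits the precision. The text names every member, every called gene of the pathway lists (2 genes counted there are not reported here by name), and the 5 genes most like the called member with the largest change. Other uncalled pathway genes, Sohlh2, Cd68, the uncalled endothelial markers and the markers that passed were named after their values were seen. The markers Insl3 and Lyz2 were not analysed here. Windows before start sites came from RefSeq (GRCm38.p6), which matched 10 members. In all, 15 alternatives covered scaling, a filter on low values, variance estimates, array weights, the ANOVA, the replicate number as a block and arrays left out.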

Additional observations from a re-analysis of the deposited data

How the results depend on the processing

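No member or called pathway gene changed direction under any alternative. Of the 10 members, 6 kept their side of the threshold under all of them, and Notch3, Jag1, Jag2 and Dll3 did not. Notch3 (adjusted p = 0.0494) lost its call with equal array medians (log2 fold change -0.37), cyclic loess (-0.32), a mean-dependent and robust variance (-0.37) and the ANOVA (-0.37), and between -0.45 and -0.33 when 1 array was left out. Jag1 lost it with the ANOVA (-0.64, adjusted p = 0.0825), and leaving out 1 array gave -0.74 to -0.53. With c-kit+ replicate 3 as the lone c-kit+ array, assumed to vary like the other group, Notch3 (-0.47), Jag1 (-0.58), Jag2 (-0.93) and Dll3 (-0.85) lost their calls. The count of lower members was 4, 2 with the ANOVA, 2 to 3 with 1 array left out and 0 with the lone array. Other pathway genes numbered 10 higher and 15 lower. The ANOVA left 8 lower, and among the higher genes it ended the calls of Kat2a, Neurl2 and Tle4. With 1 array left out, 6 to 10 were higher and 9 to 14 lower. Over all genes, 2331 and 2196 were called, against 1307 and 1205 by the ANOVA and 527 and 239 with the lone array, which leaves fewer samples. For the rest the cause was not tested. The filter on low values left Notch3, Dll1 and Dll4 out.

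The groups share replicate numbers, but nothing says that a number marks a shared mouse or day. Deviations from the group means correlated at 0.0999, 0.0973 and 0.137 between same-numbered arrays and below 0 between others. Within a group the deviations of each gene sum to 0, so positive same-number values force the others below 0 on average. With the replicate block Notch3 lost its call (log2 fold change -0.37, adjusted p = 0.0852 from limma), no other member's call changed, and Snw1 and Tle4 lost theirs. Other pathway genes still numbered 10 higher, 1 of them among the genes for receptor cleavage, and 15 lower, and 2350 and 2163 genes were called.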
